A study of Mus musculus with 8 samples.

Results

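The NMDA receptor subunit genes Grin1, Grin2a, Grin2b, Grin2c, Grin2d, Grin3a and Grin3b were followed across neuron classes and glia in 2 regions of the mouse brain, the hippocampus and the caudate putamen, in mice aged 3 and 21 months. These 7 members were taken by symbol from the 32285 genes counted in every library, and all 7 were found. The data were single-nucleus RNA counts (10x Genomics v3.1 chemistry) from C57BL/6JN mice in 4 groups of 2 libraries: anterior hippocampus (HIP) at 3 months, anterior hippocampus at 21 months, and caudate putamen (CP) at each of those ages. No treatment or engineered allele is named for any group, and every library pooled tissue punches from the left hemisphere of 1 male and 1 female. Nuclei were released by detergent lysis and sorted on Hoechst, a DNA dye, so the counts are of nuclear RNA. Whether both regions came from the same animals is not given in the sources used here.

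NMDA receptors are cation channels, typically gated by glutamate together with a co-agonist (glycine or D-serine). They mostly pass current once depolarization has expelled magnesium from the pore. Each is a tetramer built on the obligatory GluN1 subunit (Grin1), joined by GluN2 subunits (Grin2a to Grin2d), which bind glutamate and set how long the channel stays open, or by GluN3 subunits (Grin3a, Grin3b), which bind glycine and lower calcium entry. In the forebrain GluN2B prevails early in life and GluN2A is added as synapses mature, while GluN2C and GluN2D have narrower distributions.

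Grin1 and Grin2c are shown with the bases upstream of their starts, because their levels were opposed, the former highest in neurons and the latter in astrocytes. The windows hold the 250 bases before the annotated start (RefSeq, GRCm38.p6), written 5′ to 3′ on the gene's strand. Capitals mark the letters GGGCGG or CCGCCC, the GC box searched on both strands, with overlapping matches counted. The Grin1 window is chr2:25319188-25319437 and the Grin2c window chr11:115267244-115267493, both on the minus strand.
Grin1: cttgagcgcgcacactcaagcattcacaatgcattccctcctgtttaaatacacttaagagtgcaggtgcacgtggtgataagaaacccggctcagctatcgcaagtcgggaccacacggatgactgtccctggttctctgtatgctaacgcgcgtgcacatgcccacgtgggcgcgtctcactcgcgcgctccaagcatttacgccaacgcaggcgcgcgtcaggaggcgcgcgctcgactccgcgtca
Grin2c: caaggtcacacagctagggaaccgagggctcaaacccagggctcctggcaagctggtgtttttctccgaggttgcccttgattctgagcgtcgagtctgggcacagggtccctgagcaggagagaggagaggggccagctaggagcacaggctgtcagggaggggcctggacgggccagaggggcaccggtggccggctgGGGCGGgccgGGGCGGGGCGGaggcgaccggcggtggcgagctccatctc
The Grin1 window held 27 CG dinucleotides and no GC box, and the Grin2c window held 15 CG dinucleotides and 3 GC boxes. Of 32851 windows of this length in the table, 32.7% held at least 1 GC box and the median held 6 CG dinucleotides. These counts describe the letters of the windows only. Windows of Grin2d and Grin3b were also in the table, and those of Grin2a, Grin2b and Grin3a were not used here.

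The gene models differ widely in size. In the GENCODE vM21 annotation of GRCm38, Grin1 spans 28.0 kb of chromosome 2 (25291181 to 25319187), Grin2a 428 kb of chromosome 16 (9567898 to 9995560) and Grin2b 460.3 kb of chromosome 6 (135713233 to 136173511). Grin2c spans 18.1 kb of chromosome 11 (115249169 to 115267243), Grin2d 46.5 kb of chromosome 7 (45831883 to 45878378), Grin3a 184 kb of chromosome 4 (49661611 to 49845744) and Grin3b 6.48 kb of chromosome 10 (79970715 to 79977190). Levels are given as CPM, the usual depth-scaled unit, computed from the unique molecular identifiers (UMIs) of a gene and the sum of all UMIs of a class in a library. Levels of different genes are compared only after division by gene length, as CPM per kb. Whether intronic reads were counted or strand was used is not given in the sources used here. Reads of Grin1os (Grin1), Gm14329, Gm14330 and Gm26653 (Grin2b), Gm45441 and Kdelr1 (Grin2d), and Tmem259 (Grin3b), all on the opposite strand, and of Ppp3r2 on the strand of Grin3a, may not be separate from those of the members.

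The 8 libraries held 67205436 to 234811422 UMIs, and 6387 to 17013 nuclei per library were retained at median depths of 6664 to 11276.5 UMIs. Any 2 libraries shared 21 to 146 cell barcodes, at most 0.774% of the smaller one. Clusters were named X-like from marker genes, with the members left out of the genes used for clustering, and 23 classes (11 of neurons) had at least 20 nuclei in each of the 4 libraries of their region. A shallow caudate putamen cluster of 1716 nuclei (median depth 0.289 of the libraries' own) carried microglial markers, none of them among its 10 leading genes, so it was left unnamed and is called Selplg-led. In the second young hippocampal library oligodendrocyte-like nuclei held 403 CPM of the neuronal gene Syt1. Those of the other 3 hippocampal libraries held 215, 203 and 179 CPM. The automatic doublet threshold of the second young hippocampal library marked 71.1% of its nuclei and was replaced, and 15.64% were removed. The second young caudate putamen library was counted with Cell Ranger 7.0.0 and the other 7 with 6.1.2, per the file headers.

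**Figure D1:**
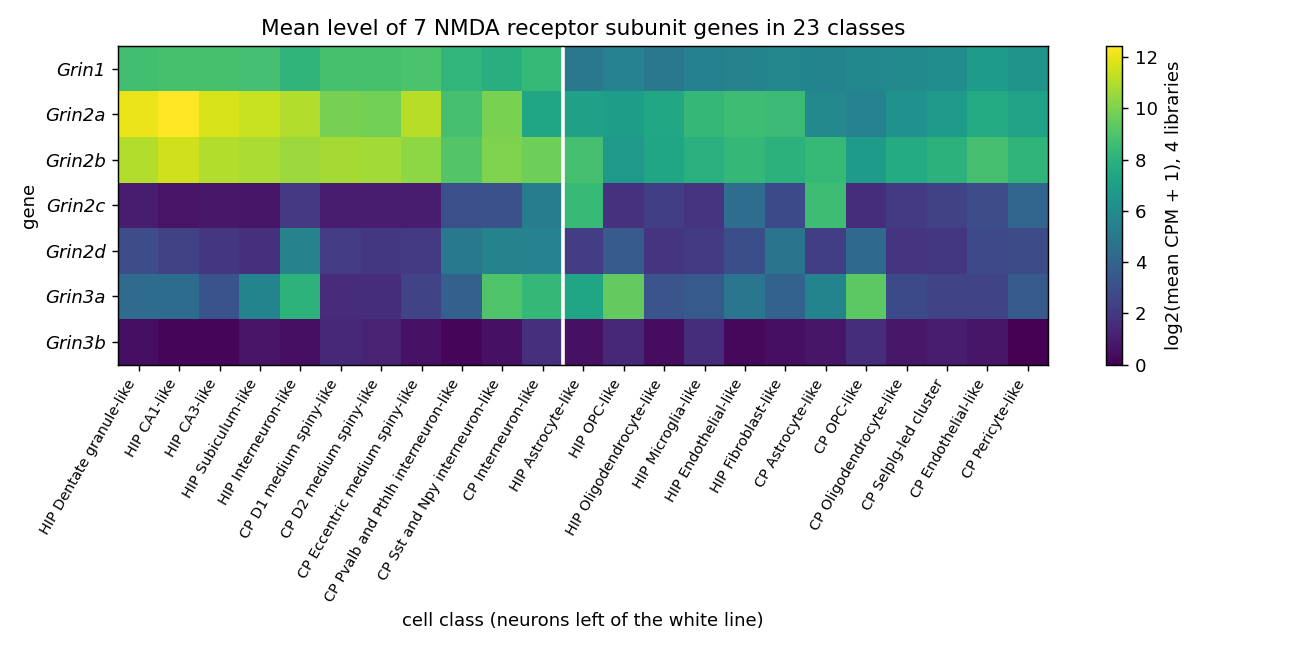
Mean level of each subunit gene, as log2(mean CPM + 1) over 4 libraries (colour), in 23 cell classes of the hippocampus (HIP) and caudate putamen (CP), with neurons left of the white line. Grin1, Grin2a and Grin2b are bright across neurons, Grin2c in both astrocyte-like classes and Grin3a in both OPC-like classes.

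Grin1, the subunit that every receptor needs, was higher in the 7 principal neuron classes than in the 4 interneuron classes that were large enough to test. Its mean in the principal classes ran from 407 ± 9.88 CPM (SD, n = 4 libraries) in dentate granule-like nuclei to 481 ± 24.1 CPM in eccentric medium spiny-like nuclei, and neighbours in that order overlapped. The interneuron classes ran from 226 ± 9.83 CPM (Sst and Npy interneuron-like) to 326 ± 19.1 CPM (caudate putamen interneuron-like), and none of their libraries reached those of a principal class. D1 medium spiny-like nuclei held 455, 469, 429.9 and 433 CPM (both 3-month libraries first here and below), and Sst and Npy interneuron-like nuclei 215, 231, 237 and 222 CPM. The groups did not overlap, and the log2 difference (interneuron minus D1) was -1.30, SE 0.0613, edgeR adjusted p = 4.28e-20.

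Per kb of gene Grin1 stood above the other members in all 11 neuron classes, for example at 16.1 CPM per kb in CA1-like nuclei against 6.40 for Grin2b, with Grin2a between them. Per kb of exon the order turned in CA1-like nuclei, with 46.6 for Grin1, 309 for Grin2a and 119 for Grin2b. Grin1 stayed highest per kb of exon in Pvalb and Pthlh interneuron-like nuclei, at 30.4 against 24.3 for Grin2a and 22.3 for Grin2b. It was also highest in caudate putamen interneuron-like nuclei, at 33.6 against 9.04 and 33.2. Which length applies depends on the share of intronic reads, so the order of the genes could not be settled.

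Grin2a and Grin2b, the main GluN2 subunits of forebrain synapses, differed among principal neurons. Grin2a was highest in CA1-like nuclei (5258, 5439, 5969 and 5523 CPM), followed by dentate granule-like (4437, 4312, 4115 and 4124 CPM), CA3-like (3279 ± 80.1 CPM, SD, n = 4) and subiculum-like nuclei (2729 ± 91.0 CPM), and no neighbours among these 4 overlapped. D1 and D2 medium spiny-like nuclei, the projection neurons of the caudate putamen, held 941 ± 77.6 and 875 ± 96.9 CPM. Grin2b spanned a narrower range, from 2944 ± 69.3 CPM in CA1-like to 554 ± 46.8 CPM in Pvalb and Pthlh interneuron-like nuclei. Dentate granule-like and CA3-like nuclei overlapped for Grin2b, at 2069 ± 5.86 and 2066 ± 50.3 CPM. Neuron classes of different regions, which come from different libraries, were set side by side by level and not tested. Tests between regions were limited to glial and vascular classes found in both.

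**Figure D2:**
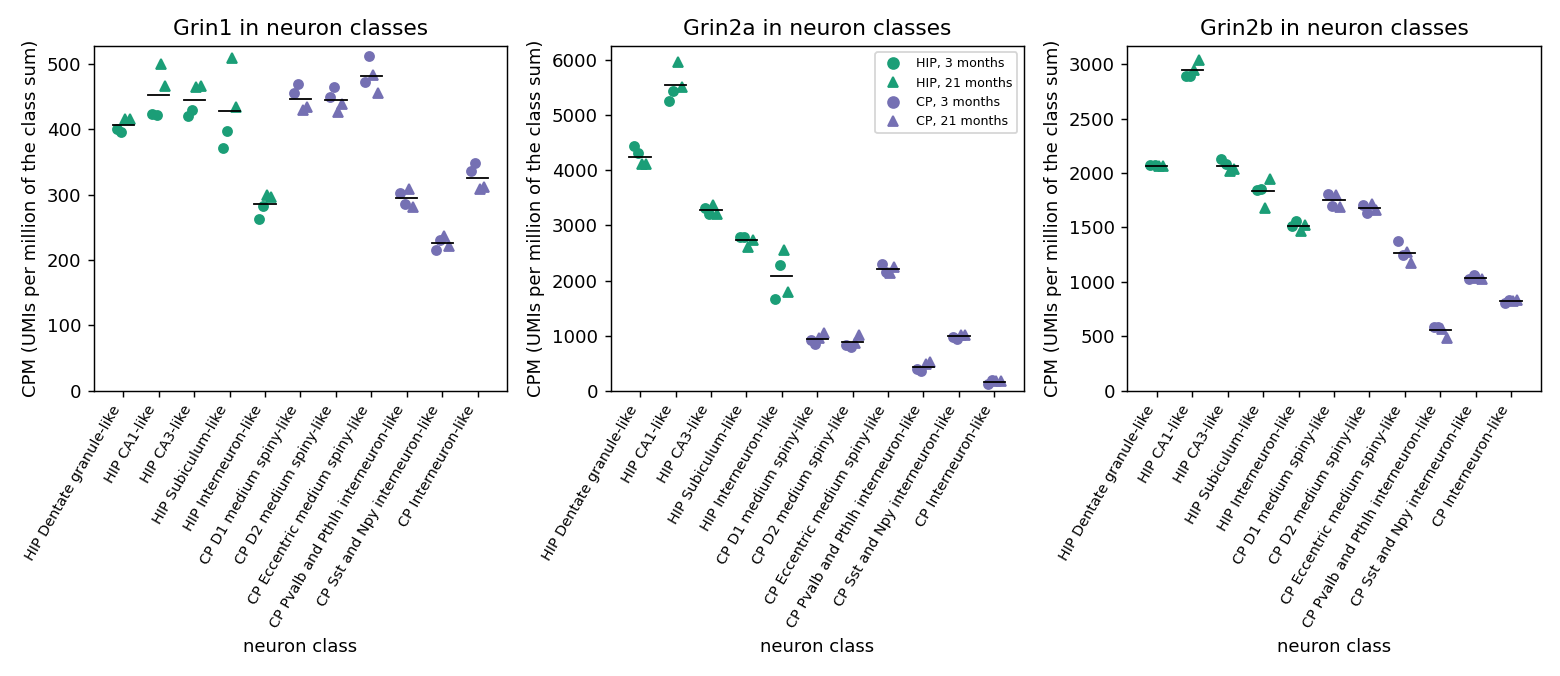
Grin1, Grin2a and Grin2b in CPM (linear axes from 0) in 11 neuron classes, 1 point per library (circles 3 months, triangles 21 months), bars for the mean of 4 libraries. Interneuron classes sit lowest for Grin1, CA1-like nuclei highest for Grin2a and Grin2b, and eccentric medium spiny-like nuclei above D1 and D2 medium spiny-like nuclei for Grin2a.

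Within the hippocampus, 46 of 60 tests of a member between 2 neuron classes were called (edgeR quasi-likelihood test with library as a block, adjusted p under 0.05), where 51.2% of all gene tests in those 10 pairs were called. The 6 members other than Grin3b entered these tests, and Grin3b did not pass the filter on low counts. Dentate granule-like nuclei held less Grin2a than CA1-like nuclei (log2 difference -0.49, SE 0.0910, edgeR adjusted p = 7.69e-05) and less Grin2b (-0.62, SE 0.0562, edgeR adjusted p = 7.34e-10). Subiculum-like nuclei held less Grin2a than CA1-like nuclei (-0.99, SE 0.0919, edgeR adjusted p = 8.24e-09), whereas their Grin1 did not pass the test (-0.06, SE 0.0625, edgeR adjusted p = 0.475). The fits rescale each sum of counts (TMM), so their differences can depart from ratios of CPM: Grin2a in dentate granule-like and CA3-like nuclei did not overlap in CPM, but the fitted difference was 0.19, SE 0.0909, edgeR adjusted p = 0.0762.

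In the caudate putamen 72 of 90 member tests between neuron classes were called, where 44.1% of all gene tests in those 15 pairs were called. D1 and D2 medium spiny-like nuclei, which serve the direct and indirect pathways, had none of the 6 tested members called (17.4% of all genes were, and no member had an unadjusted p under 0.05, against 27.2% of all genes). The D2 minus D1 log2 difference was -0.08 for Grin2a (95% interval -0.24 to 0.07) and -0.03 for Grin2b (-0.15 to 0.08).

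Eccentric medium spiny-like nuclei, a small class with Otof and Casz1 among its leading genes, held 2291, 2147, 2132 and 2239 CPM of Grin2a against 917, 854, 952 and 1040.3 CPM in D1 medium spiny-like nuclei. Every eccentric library was above every D1 library (log2 difference 1.19, SE 0.0760, edgeR adjusted p = 5.51e-15). Grin2b was lower in the eccentric class (-0.51, SE 0.0570, edgeR adjusted p = 1.39e-09), and Grin1 did not pass the test (0.06, SE 0.0517, edgeR adjusted p = 0.410). Caudate putamen interneuron-like nuclei, led by Lgr5, Trhde and Kit among others, held the least Grin2a of the 11 neuron classes tested, at 111, 184, 172 and 182 CPM (-2.88, SE 0.0950, edgeR adjusted p = 3.01e-23 against D1). Pvalb and Pthlh interneuron-like nuclei were lower than D1 medium spiny-like nuclei in Grin2a (-1.31, SE 0.0801, edgeR adjusted p = 4.31e-16) and in Grin2b (-1.85, SE 0.0604, edgeR adjusted p = 2.41e-25). The largest share of D1 medium spiny-like nuclei, 30.3% to 48.1% of a library's, came from cluster 6 in the second young library and from cluster 8 in the other 3, and without that library the Grin2a difference between the eccentric and D1 classes was 1.16.

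The log2 ratio of Grin2a to Grin2b UMIs was used to compare classes, since gene length cancels between classes. It was not divided by length, so its sign does not show which gene had the higher level. It was 1.04 ± 0.0493 (SD, n = 4 libraries) in dentate granule-like, 0.91 ± 0.0738 in CA1-like, 0.67 ± 0.0517 in CA3-like and 0.58 ± 0.0631 in subiculum-like nuclei. In the caudate putamen it was -0.90 ± 0.138 in D1 and -0.95 ± 0.156 in D2 medium spiny-like nuclei, 0.80 ± 0.0895 in the eccentric class and -2.37 ± 0.323 in interneuron-like nuclei. The eccentric class exceeded D1 medium spiny-like nuclei by 1.69 ± 0.0692, higher in 4 of 4 libraries (exact two-sided sign-flip permutation p = 0.125, 0.149 adjusted over 25 pairs). With 4 libraries 0.125 is the smallest p the test allows, and 21 of the 25 pairs of classes within a region reached it. The dentate granule-like minus CA1-like difference was 0.12 ± 0.108, with 3 of 4 libraries positive (exact permutation p = 0.25, 0.260 adjusted). D1 and D2 medium spiny-like nuclei differed (D2 minus D1) by -0.05 ± 0.0194.

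**Figure D3:**
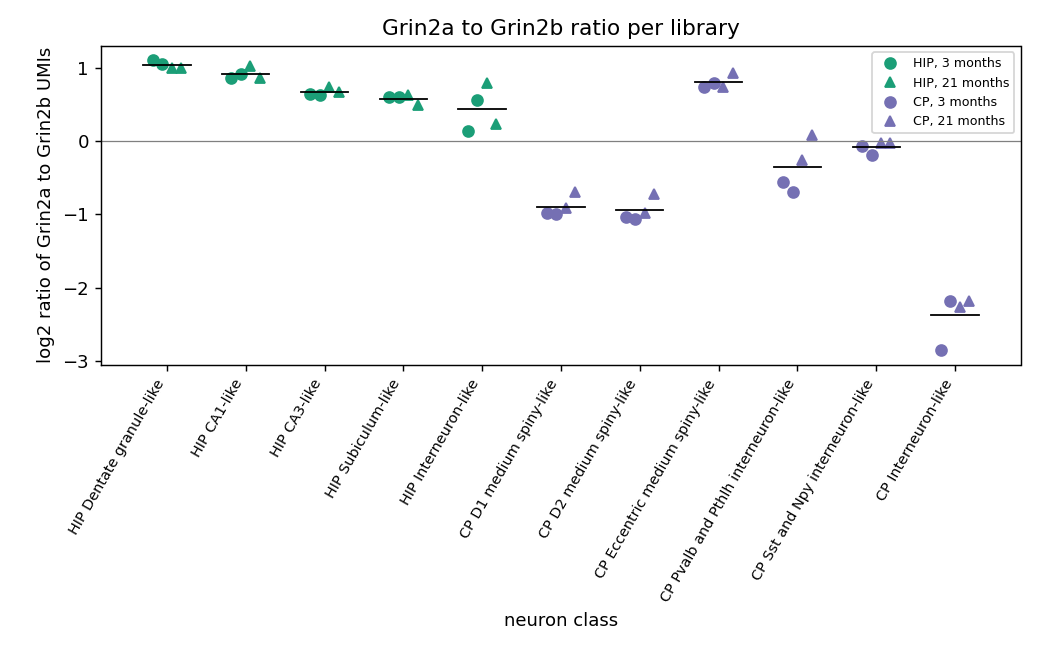
Log2 ratio of Grin2a to Grin2b UMIs in 11 neuron classes, 1 point per library (circles 3 months, triangles 21 months), bars for the mean. Hippocampal classes and the eccentric medium spiny-like class lie above the D1, D2 and caudate putamen interneuron-like classes, and 0 is no reference since the genes differ in length.

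Hippocampal interneuron-like nuclei pooled several kinds, and their Grin2a level varied between libraries (1671, 2285, 2550.3 and 1785 CPM). At a clustering resolution of 2.0 they fell into 3 groups. One with Pde11a and Kcns3 among its leading genes (256 nuclei) held 4689 ± 218 CPM of Grin2a (SD, n = 4), Lhx6 interneuron-like nuclei (266) held 1292 ± 134 CPM and Adarb2 interneuron-like nuclei (289) 695 ± 195 CPM, with no overlap between the groups. Grin2b had the reverse order without overlap, at 1187 ± 101, 1396 ± 74.6 and 1971 ± 91.4 CPM. Grin1 overlapped across the 3 groups, at 279 ± 25.6, 296 ± 27.2 and 281 ± 29.0 CPM. These groups were singled out after their values were seen and were not tested, and 1 library gave as few as 25 nuclei to a group.

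Grin2c, whose GluN2C subunit is known from cerebellar granule cells and astrocytes, was concentrated in astrocyte-like nuclei. It reached 346, 323, 352 and 354 CPM in the hippocampus and 369.9, 399.5, 330.2 and 399.8 CPM in the caudate putamen. No library of the other 21 classes exceeded 45.5 CPM, and the 7 principal neuron classes had means of 0.601 to 1.02 CPM. Oligodendrocyte-like nuclei of the same libraries were lower, with a log2 difference of -6.51 in the hippocampus, SE 0.236, edgeR adjusted p = 4.91e-18, and of -6.81 in the caudate putamen, SE 0.213, edgeR adjusted p = 1.15e-20. Grin2c appeared among the leading genes of astrocyte clusters while the naming rule was being set, so its place there was known before these tests.

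Shares of nuclei with a UMI showed the same split. Here and below, thinned shares cover only nuclei with at least 2000 UMIs, and unthinned shares cover all nuclei of a class. Thinned to 2000 UMIs per nucleus, 45.3% of hippocampal and 49.8% of caudate putamen astrocyte-like nuclei had a Grin2c UMI (70.3% and 75.0% unthinned), at median depths of 4251 to 5181 and 3937.5 to 5505 UMIs over libraries. In oligodendrocyte-like nuclei the thinned shares were 0.735% and 0.752% (1.30% and 1.07% unthinned), at 2980 to 3362 and 2509 to 3693.5 UMIs. Among neurons, caudate putamen interneuron-like nuclei held the most Grin2c, at 33.6, 38.8, 43.2 and 29.4 CPM, above every D1 medium spiny-like library (log2 difference 4.83, SE 0.295, edgeR adjusted p = 6.47e-15).

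**Figure D4:**
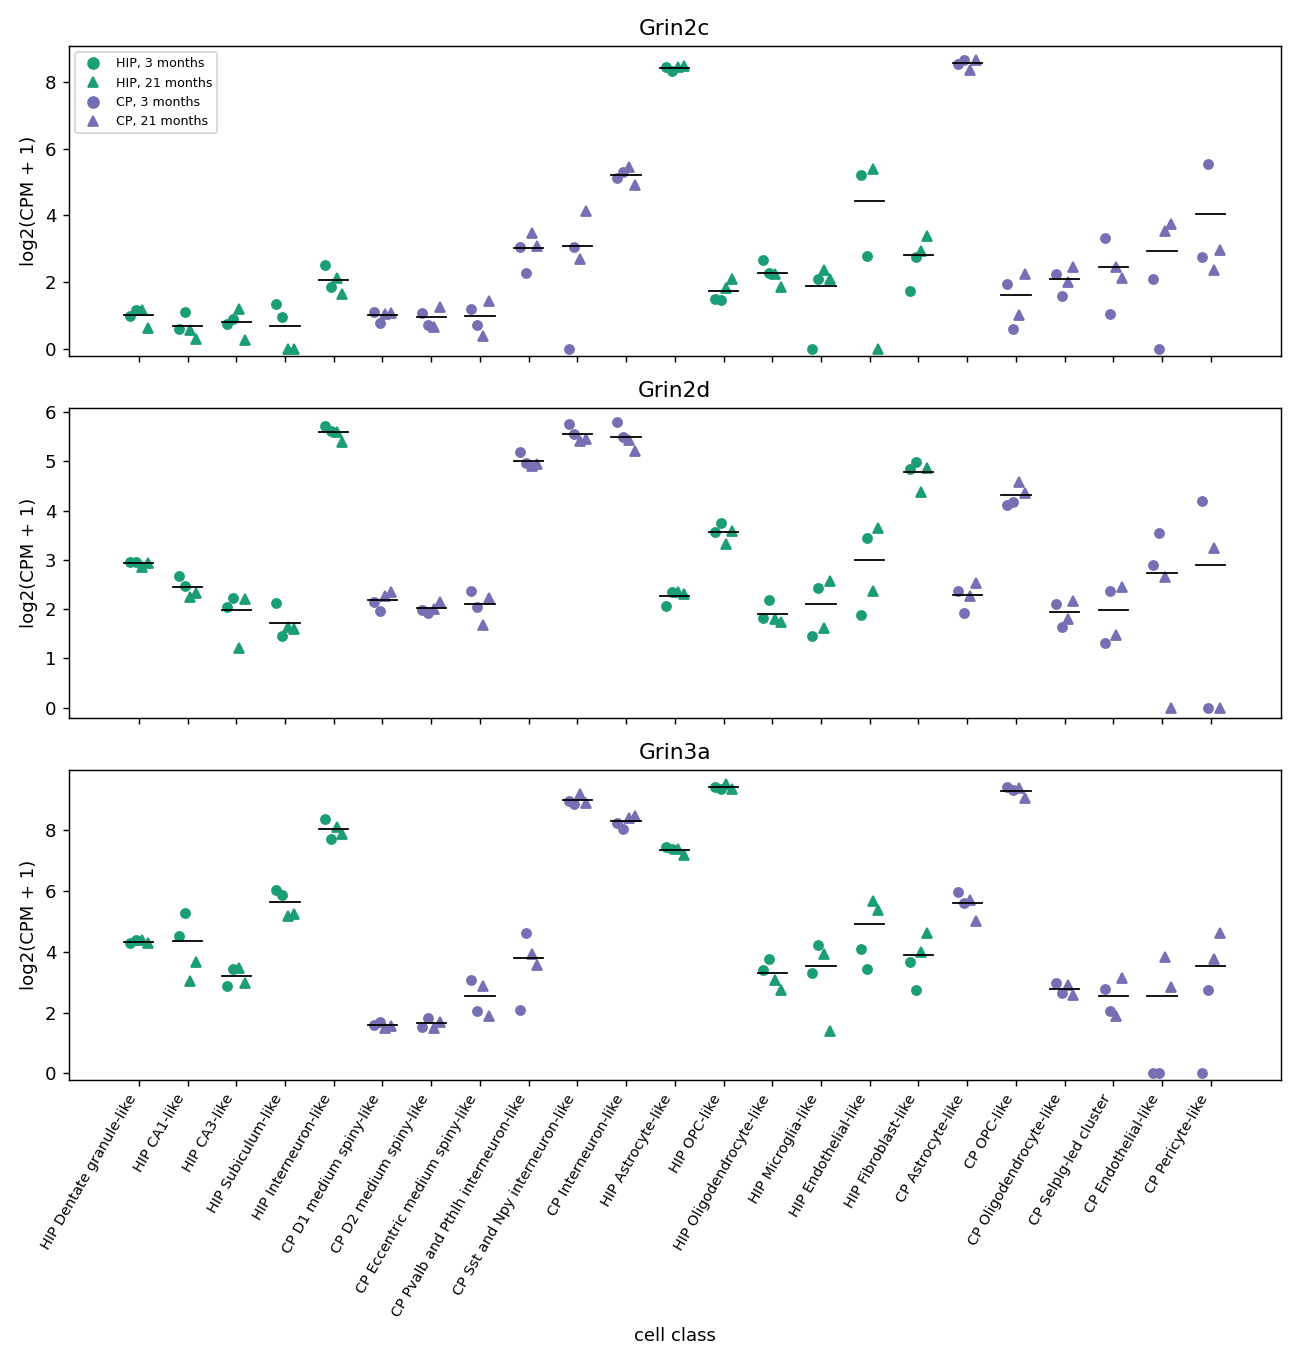
Grin2c, Grin2d and Grin3a as log2(CPM + 1) in 23 classes, 1 point per library (circles 3 months, triangles 21 months), bars for the mean. Grin2c is highest in astrocyte-like classes of both regions, Grin2d in 4 interneuron classes, and Grin3a in OPC-like classes, followed by 3 of the 4 interneuron classes.

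Grin2d, whose GluN2D subunit gives slowly closing channels with weak magnesium block, was highest in interneurons, at low levels. The 4 interneuron classes had means of 31.1 ± 2.98 CPM (Pvalb and Pthlh interneuron-like) to 47.0 ± 4.44 CPM (hippocampal interneuron-like), the principal classes 2.31 to 6.62 CPM, and no libraries of the 2 sets overlapped. Hippocampal interneuron-like nuclei (51.6, 48.1, 47.4 and 41.0 CPM) exceeded dentate granule-like nuclei (6.80, 6.74, 6.29 and 6.67 CPM) by 2.79 on the log2 scale, SE 0.0976, edgeR adjusted p = 5.46e-18. Sst and Npy interneuron-like nuclei (53.4, 46.2, 41.4 and 42.7 CPM) exceeded D1 medium spiny-like nuclei (3.41, 2.91, 3.82 and 4.11 CPM) by 3.38, SE 0.162, edgeR adjusted p = 8.14e-20. Outside neurons, hippocampal fibroblast-like nuclei held 26.7 ± 4.81 CPM (SD, n = 4) and OPC-like nuclei, the precursors of oligodendrocytes, 10.8 ± 1.44 CPM in the hippocampus and 19.0 ± 2.99 CPM in the caudate putamen. Oligodendrocyte-like nuclei held less than OPC-like nuclei (-1.99 in the hippocampus, SE 0.283, edgeR adjusted p = 6.89e-07, and -2.74 in the caudate putamen, SE 0.273, edgeR adjusted p = 6.11e-11).

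Grin3a, a glycine-binding subunit, had its highest mean levels in OPC-like nuclei. Those of the hippocampus held 688, 665, 733 and 662 CPM and those of the caudate putamen 689, 642, 672 and 539 CPM. Oligodendrocyte-like nuclei held 8.82 ± 2.90 and 5.90 ± 0.896 CPM (SD, n = 4), far below every OPC-like library (log2 difference -6.29, SE 0.259, edgeR adjusted p = 1.87e-15, and -6.75, SE 0.180, edgeR adjusted p = 4.81e-25). Thinned to 2000 UMIs, 67.4% and 66.5% of OPC-like nuclei had a Grin3a UMI (91.6% and 89.5% unthinned, median depths 5384 to 7469 and 4547.5 to 6797.5 UMIs), against 1.66% and 1.23% of oligodendrocyte-like nuclei (2.77% and 1.80% unthinned). Grin2b was low in the same OPC-like nuclei, at 103 ± 47.6 and 116 ± 20.8 CPM.

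Among neurons Grin3a separated the interneurons of the caudate putamen. Sst and Npy interneuron-like nuclei held 497, 470.1, 588 and 474 CPM and the interneuron-like class with Lgr5 302, 266, 336 and 353 CPM. Pvalb and Pthlh interneuron-like nuclei held 3.29, 23.5, 14.4 and 10.9 CPM and D1 medium spiny-like nuclei 2.04, 2.22, 1.85 and 1.94 CPM. The Sst and Npy class exceeded D1 medium spiny-like nuclei 198-fold (log2 difference 7.63, SE 0.175, edgeR adjusted p = 1.43e-16), and the Pvalb and Pthlh class exceeded them by 2.60 on the log2 scale, SE 0.388, edgeR adjusted p = 1.50e-05. Hippocampal interneuron-like nuclei held 262 ± 53.4 CPM (SD, n = 4), above dentate granule-like nuclei (3.72, SE 0.275, edgeR adjusted p = 5.00e-08), and subiculum-like nuclei had the highest mean of the principal classes at 48.7 ± 14.7 CPM.

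Grin3b was low in all 23 classes. Its highest mean among the 23 classes was 2.24 ± 0.994 CPM (SD, n = 4), in caudate putamen interneuron-like nuclei, and 21 of 22 neighbouring classes in the order of its levels overlapped. It passed the low-count filter of the age tests in 3 classes, and of these D1 medium spiny-like nuclei held 1.58, 1.68, 1.54 and 1.53 CPM, D2 medium spiny-like nuclei 1.32 ± 0.130 CPM and dentate granule-like nuclei 0.359 ± 0.0819 CPM.

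Grin1 and Grin2a were also counted in glia. In hippocampal oligodendrocyte-like nuclei Grin1 stood at 24.1, 54.4, 22.0 and 20.1 CPM and Grin2a at 147, 308, 129 and 105 CPM, each highest in the second young library, as was Syt1. Relative to dentate granule-like nuclei, the mean in oligodendrocyte-like nuclei was 7.47% for Grin1, 4.04% for Grin2a and 7.98% for Grin2b, beside 7.38% for Syt1, 3.81% for Rbfox3 and 15.8% for Snap25, all 3 neuronal genes. Relative to D1 medium spiny-like nuclei of the caudate putamen these were 13.2%, 8.10% and 11.3%, beside 12.3%, 5.85% and 24.1%. In hippocampal OPC-like nuclei Grin1 held 28.7, 57.8, 34.7 and 56.2 CPM, 10.9% of the dentate granule-like level. Grin2a reached 2.88% and Grin2b 4.99% there, beside 5.89% for Syt1, 2.46% for Rbfox3 and 34.0% for Snap25. The part of free neuronal RNA in these levels was not tested.

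Grin2b in astrocyte-like nuclei was 405, 519.7, 407 and 413 CPM in the hippocampus and 345, 399, 265 and 264 CPM in the caudate putamen. That is 21.1% and 18.3% of the level in dentate granule-like and D1 medium spiny-like nuclei, where Syt1 reached 5.58% and 9.01%, Rbfox3 3.19% and 4.15%, and Snap25 11.7% and 17.3%. By this measure Grin2b stood above Snap25 in 4 of 4 hippocampal and 2 of 4 caudate putamen libraries. Oligodendrocyte-like nuclei held less Grin2b than astrocyte-like nuclei (log2 difference -1.57 in the hippocampus, SE 0.291, edgeR adjusted p = 1.21e-04, and -0.71 in the caudate putamen, SE 0.179, edgeR adjusted p = 0.00145). Without the second young library the hippocampal difference was -1.75. Over all 30 pairs of glial and vascular classes 76 of 180 member tests were called, where 47.5% of all gene tests were called: 21 of 30 for Grin3a, 17 for Grin2b, 15 for Grin2c, 14 for Grin2d, 7 for Grin2a and 2 for Grin1.

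Regions were tested directly in the 4 glial and vascular classes found in both, over all 8 libraries. Of 22 member tests 4 were called, 1 higher and 3 lower in the caudate putamen, where 12% of all gene tests were called. In all 4 classes Grin3a was lower in the caudate putamen (log2 difference -3.85 to -0.16), as was Grin2a (-1.49 to -0.91). The -3.85 came from endothelial-like nuclei, which had 6 Grin3a UMIs in the caudate putamen. For Grin3a only the astrocyte-like difference was called. Grin1 was higher in all 4 (0.26 to 1.40), and Grin2b, Grin2c and Grin2d had both signs. The classes share their libraries. Astrocyte-like nuclei held less Grin3a in the caudate putamen (61.8, 47.5, 51.0 and 31.4 CPM) than in the hippocampus (174, 168, 168 and 145 CPM). The regions did not overlap (log2 difference -1.81, SE 0.148, edgeR adjusted p = 4.98e-05). Astrocyte-like nuclei of the caudate putamen also held less Grin2b (-0.50, SE 0.0832, edgeR adjusted p = 6.38e-04), while Grin2c did not pass the test (0.09, SE 0.0784, edgeR adjusted p = 0.473). In this class 20.9% of all genes were called, 11.1% higher and 9.8% lower.

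In oligodendrocyte-like nuclei, where 13% of all genes were called (7.94% higher, 5.02% lower), Grin2a was lower in the caudate putamen (68.8, 64.2, 61.7 and 114 CPM, log2 difference -1.13, SE 0.239, edgeR adjusted p = 0.0150) and Grin1 higher (59.5, 66.9, 39.6 and 70.7 CPM, 0.99, SE 0.248, edgeR adjusted p = 0.0316). For both genes the ranges of the regions overlapped. Principal neurons around them held 4247 ± 156 CPM of Grin2a in the hippocampus (dentate granule-like) and 941 ± 77.6 CPM in the caudate putamen (D1 medium spiny-like), and the part of their RNA was not tested. Without the second young hippocampal library the Grin2a difference was -0.84 and no longer called (edgeR adjusted p = 0.107). The Grin1 call was lost without the first young (0.82), the first old (1.06) or the second old hippocampal library (0.99), and without the second young (0.95) or second old caudate putamen library (0.76).

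Age was compared as 21 against 3 months within each class. No member was called in any class by edgeR's quasi-likelihood test, in 55 tests in the hippocampus (11 classes) and 64 in the caudate putamen (12 classes), where 1.04% and 1.09% of all gene tests were called. At an unadjusted p under 0.05 there were 9 of 55 and 5 of 64 member tests (11.1% and 12.8% of all gene tests), and DESeq2 called 2 and 0 (1.3% and 1.5% of all). The median log2 change of the members tested was -0.02 in the hippocampus and -0.01 in the caudate putamen. With 2 pooled libraries per age, p-values measure only the spread between these libraries. For astrocyte-, OPC-, oligodendrocyte- and endothelial-like nuclei, each region's age effect came from a joint fit over all 8 libraries. The spread in both regions entered those p-values.

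Several classes had narrow intervals for the change with age. In dentate granule-like nuclei Grin2b held 2073, 2075, 2066 and 2062 CPM, a fitted log2 change of 0.04 (95% interval -0.08 to 0.16), and the change of Grin2a was -0.04 (-0.16 to 0.08). In D1 medium spiny-like nuclei the log2 change was -0.04 (-0.26 to 0.18) for Grin2b, 0.14 (-0.07 to 0.35) for Grin2a and -0.13 (-0.31 to 0.06) for Grin1. Grin2c in astrocyte-like nuclei gave 0.15 (-0.09 to 0.39) in the hippocampus and -0.07 (-0.31 to 0.17) in the caudate putamen, and Grin3a in OPC-like nuclei 0.11 (-0.11 to 0.33) and -0.10 (-0.32 to 0.12). For these members the intervals span 0.

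Among neurons the largest age difference was that of Grin3a in CA1-like nuclei, at 22.0 and 37.9 CPM in the young and 7.31 and 11.7 CPM in the old libraries. The ages did not overlap, but edgeR did not call the log2 change of -1.63 (SE 0.372, adjusted p = 0.195; 1.11% of genes were called). DESeq2 called it (adjusted p = 3.56e-05), as did edgeR without the first (2.72e-19) or the second young library (4.58e-06), where the young library left alone is assumed to vary like the old ones. Without the first or the second old library edgeR did not call it (adjusted p = 0.673 and 0.325). Subiculum-like nuclei had the same order, with 64.4 and 58.1 CPM against 35.1 and 37.2 CPM (log2 change -0.69, SE 0.172, edgeR adjusted p = 0.173). In dentate granule-like nuclei Grin3a stood at 18.5, 20.1, 19.8 and 18.7 CPM. The age effects of dentate granule-like and CA1-like nuclei differed by 1.71, SE 0.458, edgeR adjusted p = 0.345. None of 14 such tests, D2 against D1 medium spiny-like nuclei included, was called by edgeR, where 1.13% of all gene tests were. Of the 14, 3 had an unadjusted p under 0.05 (8.68% of all) and DESeq2 called 1 (0.595% of all).

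Grin1 in CA1-like nuclei stood at 423 and 421 CPM at 3 and 499 and 466 CPM at 21 months. Its log2 change of 0.28 was not called (SE 0.0831, edgeR adjusted p = 0.157). The other hippocampal neuron classes had the same order in these libraries, also without overlap or a call. These classes share their libraries, and the share of all genes without overlap is not given here. CA3-like nuclei held 420 and 429 against 464 and 465 CPM, and dentate granule-like nuclei 400 and 396 against 415 and 415 CPM. Interneuron-like nuclei held 262 and 283 against 299 and 296 CPM, and subiculum-like nuclei 371 and 397 against 509 and 435 CPM. In the caudate putamen 3 classes had the opposite order, also without overlap or a call. D1 medium spiny-like nuclei held 455 and 469 against 429.9 and 433 CPM, and D2 449 and 465 against 427 and 438 CPM. Interneuron-like nuclei held 335 and 348 against 309 and 311 CPM. In the eccentric, Pvalb and Pthlh, and Sst and Npy classes the ages overlapped. The fitted log2 changes in D1 and D2 medium spiny-like nuclei were -0.13 and -0.10. In glia found in both regions, the mean age effect gave 0 of 22 member tests called by edgeR, where 3.27% of all gene tests were called. At an unadjusted p under 0.05 there were 3 (16.8% of all), and DESeq2 called 0 (2.54% of all). The smallest adjusted p was that of Grin2b in astrocyte-like nuclei (-0.29, SE 0.0831, edgeR adjusted p = 0.0791). These held 345 and 399 CPM in the young and 265 and 264 CPM in the old caudate putamen. In the hippocampus the ages overlapped, at 405 and 519.7 CPM against 407 and 413 CPM, and the second young library was highest. The difference of the age effects between regions was called by edgeR in 0 of 22 member tests and in 0% of all gene tests, with 3 at an unadjusted p under 0.05 (5.62% of all) and 0 by DESeq2 (0.0264% of all). Grin3a in endothelial-like nuclei stood at 16.0 and 9.84 CPM in the young and 49.8 and 40.3 CPM in the old hippocampus, without overlap and without a call (log2 change 1.78, SE 0.632, edgeR adjusted p = 1.00). In the caudate putamen it had 0 UMIs in both young libraries and 13.2 and 6.25 CPM in the old ones, from 6 UMIs in all. Grin2a in hippocampal astrocyte-like nuclei, at 102, 305, 82.2 and 63.6 CPM, had a log2 change of -1.38, SE 0.615, edgeR adjusted p = 0.410, and its second young library was the high one. DESeq2's other call by age was Grin2b in hippocampal oligodendrocyte-like nuclei (adjusted p = 0.00135, edgeR log2 change -1.06, SE 0.285, edgeR adjusted p = 0.118, 1.05% of all genes called by edgeR), the class in which the second young library was high in Syt1.

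The Grin2a to Grin2b ratio was higher at 21 months on average in all 6 caudate putamen neuron classes, which share their 4 libraries and are not independent. The sign turned in the eccentric class without the second old library (-0.02) and in interneuron-like nuclei without the first young library (-0.04, against 0.63 without the second). The log2 differences ran from 0.07 in the eccentric class to 0.55 in Pvalb and Pthlh interneuron-like nuclei, where Grin2a held 394 and 357 CPM at 3 and 478 and 514 CPM at 21 months. In D1 and D2 medium spiny-like nuclei the differences were 0.18 and 0.20 and the ages did not overlap (exact permutation p = 0.333 for each, the smallest that 2 against 2 libraries allow, and 0.611 adjusted over 11 tests). Without the second old library the differences were 0.07 in D1 and 0.07 in D2 medium spiny-like nuclei, against 0.29 and 0.33 without the first old library. In hippocampal classes the differences had both signs, from -0.08 in dentate granule-like to 0.17 in interneuron-like nuclei, where the sign turned without the first young (-0.04) or the first old library (-0.12). Of the 11 age tests 6 reached the smallest p.

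**Figure D5:**
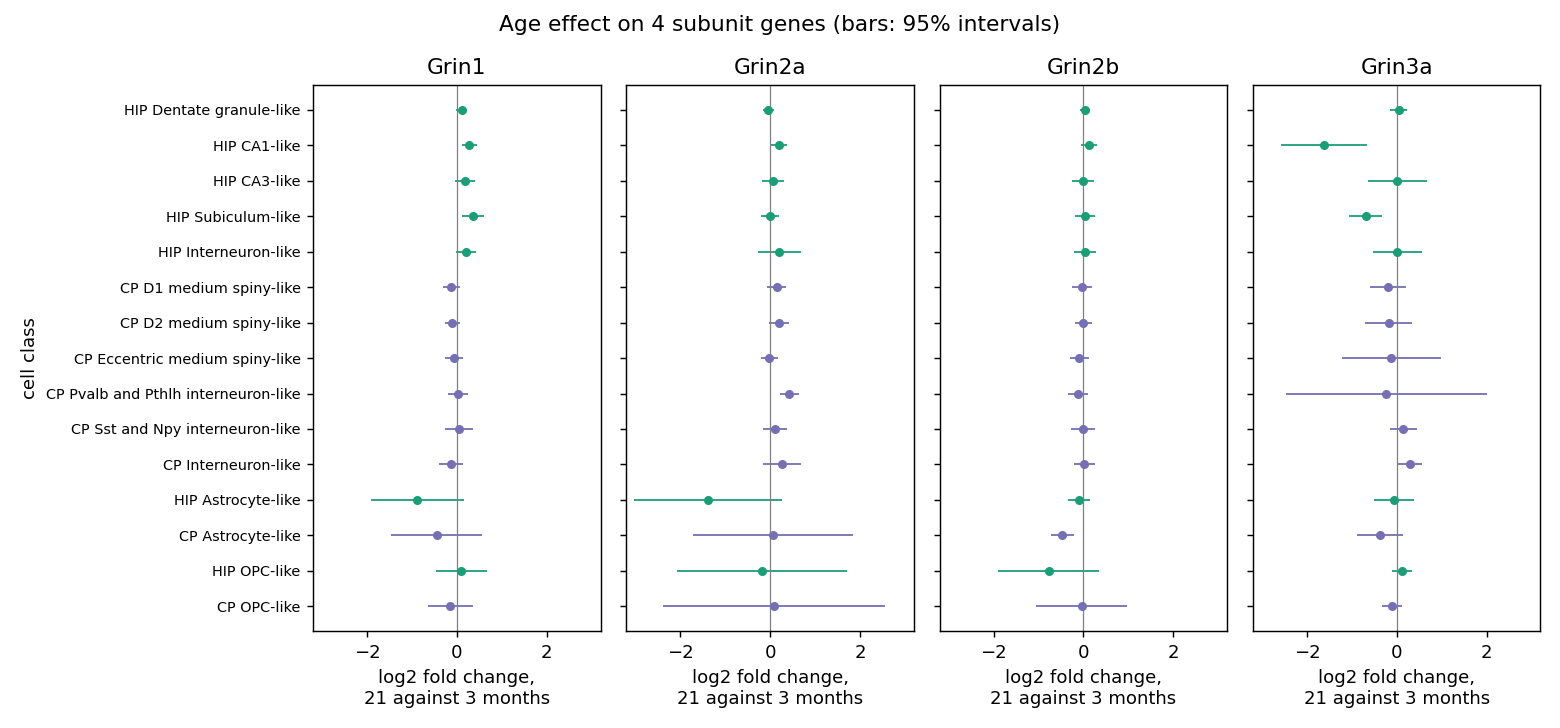
Log2 fold change at 21 against 3 months for Grin1, Grin2a, Grin2b and Grin3a in up to 15 classes (edgeR, bars for 95% intervals), where the low-count filter was passed. No change was called, and Grin3a in CA1-like nuclei is lowest at -1.63.

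Genes that work with the receptor were tested for age in the same fits. Of 56 listed genes for scaffolds, kinases, trafficking, signalling and glutamate handling, all tested in dentate granule-like nuclei, 5 rose and 0 fell, where 4.2% of all genes were called. None was called by edgeR in CA1-like (1.11% of all genes called), CA3-like (0.166%), subiculum-like (0.279%), eccentric medium spiny-like (0.0592%) or any interneuron class (0% to 0.0762%). In dentate granule-like nuclei the median log2 change was 0.03 for the list and -0.01 for all genes. Camk2d, the delta chain of the calcium/calmodulin kinase that docks on GluN2B, rose from 22.1 and 18.6 CPM to 102 and 104 CPM (log2 change 2.40, SE 0.0912, edgeR adjusted p = 4.99e-07). In CA1-like nuclei it stood at 15.0 and 14.1 CPM and 6.01 and 11.7 CPM, and the difference of the age effects was called, as for 2.15% of all genes (3.13, SE 0.181, edgeR adjusted p = 5.63e-08). Rasgrp1, a calcium-responsive activator of Ras, rose from 56.1 and 52.8 to 86.4 and 86.1 CPM (0.71, SE 0.0656, edgeR adjusted p = 1.11e-04). Ptpn5, the phosphatase STEP that acts on GluN2B, rose by 0.53, SE 0.0852, edgeR adjusted p = 0.00523, and Kif17, a motor that carries GluN2B, and Camk2g rose by 0.34 and 0.30. With each library's trend of level with gene length removed, a setting chosen after seeing the data, 6 listed genes rose and 3 fell. The share of all genes called in this setting is not given, here or below, so its counts have no background beside them. The largest share of dentate granule-like nuclei, 32.7% to 47.9% of a library's, came from different clusters in the young (11 and 9) and the old libraries (10).

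In D1 medium spiny-like nuclei 1 of 56 listed genes rose and 1 fell (1.29% of all genes called, list median 0.02), and in D2 medium spiny-like nuclei 2 of 55 rose and 1 fell (4.99% called, list median 0.00). Nos1, the neuronal nitric oxide synthase tethered to the receptor by PSD-95, rose in both from a very low level, in D2 medium spiny-like nuclei from 2.32 and 1.99 to 6.72 and 5.79 CPM (1.52, SE 0.156, edgeR adjusted p = 0.00752) and in D1 by 1.31. Sst and Npy interneuron-like nuclei held 1527 and 1663 CPM of Nos1 at 3 and 1391 and 1791 CPM at 21 months, and the part of their RNA in the medium spiny counts was not tested. Cdk5, a kinase that phosphorylates GluN2A, fell on the log2 scale in D1 (-0.64, SE 0.0893, edgeR adjusted p = 0.0330) and D2 medium spiny-like nuclei (-0.64, SE 0.126, edgeR adjusted p = 0.0393), and Camk2g rose in the latter (0.81, SE 0.136, edgeR adjusted p = 0.0268). With the length trend removed, 0 listed genes rose and 1 fell in D1, and 2 rose and 0 fell in D2 medium spiny-like nuclei.

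In OPC-like nuclei of the caudate putamen 1 of 52 listed genes rose (0.306% of all genes called): Rasgrf2, a Ras exchange factor, from 13.5 and 7.78 to 36.6 and 43.6 CPM (2.04, SE 0.342, edgeR adjusted p = 0.00123). In hippocampal OPC-like nuclei 2 of 52 fell (1.05% called): Fyn, a kinase of the Src family, from 593 and 571 to 370.4 and 336 CPM (-0.65, SE 0.129, edgeR adjusted p = 0.00596), and Ptk2b, a calcium-activated kinase (-1.43, SE 0.367, edgeR adjusted p = 0.0388). Oligodendrocyte-like nuclei from the caudate putamen had 3 listed genes called (Camk2g, Prkca and Cdk5; 2 rose and 1 fell), where 1.38% of all genes were called, and with the length trend removed 0 rose and 1 fell. The Selplg-led cluster had 1 (0.867% called, Rasgrf2 again). For the mean age effect over both regions, 0 of 55 listed genes rose and 1 fell in astrocyte-like nuclei (3.36% of all genes called), Lin7b, an adaptor of receptor trafficking (-0.92, SE 0.212, edgeR adjusted p = 0.0334). In OPC-like nuclei 1 of 52 rose and 2 fell (2.02% called): Rasgrf2 (1.42, SE 0.236, edgeR adjusted p = 1.98e-04), Fyn (-0.43, SE 0.0910, edgeR adjusted p = 0.00554) and Lin7a (-0.53, SE 0.144, edgeR adjusted p = 0.0386). In endothelial-like nuclei none of 41 was called, where 0% of all genes were called.

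The genes most like each member over the 23 class means were sought among 14647 genes by Pearson's r of log2(CPM + 1), as a description, since the classes share libraries. For Grin2a these were Camk2a (r = 0.94), Kcnip4 (r = 0.93) and Kcnab2 (r = 0.93), each with its highest mean in CA1-like or subiculum-like nuclei. For Grin2b the nearest were Gm14330 (r = 0.98) and Gm14329 (r = 0.96), annotated within Grin2b on the opposite strand so that their reads may not be separate, and then Rbfox3 (r = 0.94). Grin1 was nearest to Unc13a (r = 0.99), a presynaptic vesicle priming factor, then Morc2b (r = 0.98) and Olfr239 (r = 0.98). Grin2c was nearest to Gm20743 (r = 0.95), Gm37885 (r = 0.92) and Gm973 (r = 0.91), all highest in astrocyte-like nuclei. Grin2d was nearest to Gm48837 (r = 0.89), Btbd11 (r = 0.88) and Gprasp2 (r = 0.88), and Grin3a to Plxna3 (r = 0.88), Plpp4 (r = 0.85) and Fxyd6 (r = 0.83). Grin3b reached 5 CPM in no class and was left out. Among the members, r was 0.91 between Grin1 and Grin2b, 0.89 between Grin2a and Grin2b, and 0.63 between Grin2d and Grin3a.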

How the data were processed

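Single-nucleus RNA was measured in 8 libraries, and the deposited files hold whole-number UMI counts per gene and cell barcode. Per the submitters' processing notes, counts were made by the authors with Cell Ranger 4.0.0 on mm10. The file headers name Cell Ranger 6.1.2 in 7 libraries and 7.0.0 in the second young caudate putamen library. The sources used here do not state whether intronic reads were counted.

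From these counts, nuclei with fewer than 500 genes (1307) or over 5% mitochondrial UMIs (3) were removed, and 10775 doublets were removed with Scrublet (in scanpy 1.11.5, Python 3.11.15). These were 2.55% to 15.64% of a library, and a library's automatic threshold was replaced by the expected rate where it marked more than 3 times that rate. Of 109826 barcodes 97741 were retained. Each region was clustered (3000 variable genes, 40 components, 20 neighbours, Leiden resolution 1) without the members and the 56 pathway genes, giving 36 hippocampal and 32 caudate putamen clusters. Clusters were named from markers, and 10 and 5 stayed unnamed, 1.90% to 12.4% of a library's nuclei.

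UMIs were summed per class and library where every library of a region had 20 nuclei or more. The sums were tested with edgeR 4.0.16 (R 4.3.3; TMM, filterByExpr, quasi-likelihood test) across all genes of a class, with Benjamini-Hochberg adjusted p under 0.05 as a call. Pairs of classes were tested with the library as a block, and such classes were cut from the same nuclei. Alternatives were DESeq2 1.42.0, other filters and scalings, retained doublets, resolution 2, a replicate block, a region's libraries alone and leaving out each library. In another alternative, the sums of a fit were thinned to its lowest sum. Thinning to 2000 UMIs per nucleus served only the shares of nuclei with a UMI. Ratios of Grin2a to Grin2b were tested with exact permutation tests over libraries. Depth per library and class sets the precision; intervals cover the spread between libraries.

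The members, the gene lists and the tests were chosen with earlier results of these data known. The naming rule was revised through about 10 versions after the clusters' names and leading genes were seen, before any test of expression. Merging the hippocampal interneuron clusters, keeping the Selplg-led cluster and splitting interneurons at resolution 2 were choices made after seeing the data. Named pathway genes were those called, at most 10 per comparison with the largest change first. The 3 genes most like each member were the highest correlations among genes with 10 CPM or more in a class. The call of 1 listed gene in hippocampal oligodendrocyte-like nuclei and the listed genes called for mean age in oligodendrocyte-like nuclei are not reported here.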

Additional observations from a re-analysis of the deposited data

How the results depend on the processing

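Of 59 results for single members, 48 kept their direction and side of the threshold under every alternative run for them. Under some alternative 8 lost their call and 5 reversed, and these groups overlap. Pairs of classes were not run with a replicate block or a region's libraries alone. Reversals were Grin3a, eccentric minus D1 medium spiny-like, with thinned sums (-0.41), and Grin2a, Sst and Npy interneuron-like minus D1, with the gene-length trend removed (0.031). With doublets retained, 3 caudate putamen glial differences reversed: oligodendrocyte-like minus OPC-like in Grin2b (-1.41) and Grin2a (-1.89), and OPC-like minus astrocyte-like in Grin2b (0.49). Of 194 pair calls, 192 were kept with RLE scaling or DESeq2, 189 without the low-count filter and 190 at resolution 2. With the length trend removed 189 were kept, with thinned sums 152 of 176 and with doublets retained 137 of 155.

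Counts of members called by age, 0 in the report, were in the hippocampus 2 by DESeq2, 5 without the low-count filter, 2 with doublets retained and 0 to 3 when 1 library was left out (1 without the second young hippocampal library, 3 without any other hippocampal one and 0 without a caudate putamen one). In the caudate putamen they were 2 without the filter and 0 to 2 with 1 library left out (2 without either old caudate putamen library). The mean age effect gave 3 without the filter, 1 with doublets retained, 1 with the length trend removed and 0 to 2 with 1 library left out. The difference between regions gave 2 without the filter. The difference between neuron classes gave 1 by DESeq2, without the filter, with doublets retained or thinned, and 0 to 1 with 1 library left out. Region calls in glia, 4 in the report, were 9 without the filter, 7 with doublets retained, 2 thinned and 3 to 5 with 1 library left out. With doublets retained the caudate putamen interneuron-like class was lost, leaving 46 of 60 pair calls against 72 of 90, and the ratio differences were -0.075 for D2 minus D1 and 1.58 for eccentric minus D1. Apart from DESeq2, whose shares stand with the results, the share of all genes called in these settings is not given. Counts of members called in them have no background beside them and cannot be read as results about the members. Causes were not tested, other than the classes lost with doublets.

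Replicate numbers were not used as pairs in the main tests, and no label ties a number to animals or days. Correlations of same-numbered deviations ran from -0.24 to 0.63 over 23 classes, below -0.1 in 2 and above 0.1 in 10. Above 0.1 were 2 of 11 hippocampal and 8 of 12 caudate putamen classes, and 11 of those 12 were positive. Whether the numbers pair the caudate putamen libraries could not be settled. With a replicate block, age calls were 2 in the hippocampus (CA1-like Grin1, 0.28, and Grin3a, -1.56) and 1 in the caudate putamen (Pvalb and Pthlh interneuron-like Grin2a, 0.43), and region calls 8. The share of all genes called with the block is not given either. Grin3b passed the low-count filter of the age tests in 3 of 23 classes.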

Other observations

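Several named neuron classes were too small for the tests, and their values are given without one. Cholinergic-like nuclei of the caudate putamen (146 nuclei, 19 to 46 per library) held 153 ± 18.1 CPM of Grin1 (SD, n = 4), 61.8 ± 31.2 of Grin2a, 1195 ± 186 of Grin2b, 44.9 ± 11.6 of Grin2d and 378 ± 50.3 of Grin3a, and the log2 ratio of Grin2a to Grin2b was -4.42 ± 0.762. Immature neuron-like nuclei of the hippocampus (203 nuclei, in both 3-month libraries) held mean levels of 1795 CPM of Grin2a and 1954 CPM of Grin2b. Cajal-Retzius-like nuclei of the hippocampus (160 nuclei) held 143 ± 66.4 CPM of Grin1 (SD, n = 4). Classes named only excitatory neuron-like held 1354 ± 301 CPM of Grin2a in the hippocampus (393 nuclei, at least 10 per library) and 1939 ± 669 CPM in the caudate putamen (208 nuclei, at least 1 per library).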
